A study of Homo sapiens with 12 samples.

Results

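Most SLC25 genes encode carriers that move metabolites across the inner mitochondrial membrane. All rows of the deposited count table whose symbol is SLC25A followed by a number were taken as members, 48 of 26364 genes. Of these, 43 held enough counts to be tested. SLC25A31 and SLC25A48 had 0 counts in all 12 libraries, and SLC25A2, SLC25A47 and SLC25A52 had 8, 16 and 13 counts over all libraries and were not tested.

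Most carriers are small proteins that bind a substrate on one side of the membrane and release it on the other. They exchange ADP for ATP, bring in phosphate, pass citrate and malate between mitochondrion and cytosol, and deliver amino acids, cofactors, nucleotides and iron. In dividing lymphoma cells they connect the citric acid cycle with the synthesis of lipids, nucleotides and haem.

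Chidamide, an inhibitor of histone deacetylases, was tested in 2 established B-cell lymphoma lines by sequencing polyadenylated RNA. The groups were JeKo-1 with 4 µM chidamide, JeKo-1 with vehicle, Granta-519 with 4 µM chidamide and Granta-519 with vehicle, each at 12 h and with 3 libraries, 12 in all. Both lines come from mantle cell lymphoma, and the series title concerns the effect of the drug on MYC. Whether replicates were separate cultures was not stated, so p-values here measure spread between libraries and that spread may be technical.

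Library totals ran from 12873642 to 16592694 counts, and members held 0.358% to 0.471% of them. Libraries with the JeKo-1 label went against it in the mantle cell genes: SOX11 had 0 counts in all 6, and CCND1 averaged 0.934 CPM (counts scaled to a fixed library total, with TMM-scaled library sizes) with chidamide and 0.123 CPM with vehicle. Granta-519 held 1747 CPM of CCND1 with chidamide and 2114 CPM with vehicle. All 6 B-cell markers examined had counts in every group, and these libraries are called by their label throughout. Summed CPM of 6 myeloid markers ran from 12.4 to 13.3 with chidamide, against 0.414 to 0.889 with vehicle, under the JeKo-1 label, and from 19.5 to 21.3 with chidamide, against 1.07 to 1.69 with vehicle, in Granta-519. Among them MPO was at 0 in both JeKo-1-labelled groups and S100A8 at 0 in Granta-519. The part of these markers in the results below was not tested.

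The first comparison asked which carriers changed with chidamide under the JeKo-1 label. Of 43 tested members, 12 rose and 22 fell at an edgeR adjusted p under 0.05, and 9 were not called. The carriers of citrate (SLC25A1), oxoglutarate (SLC25A11), folate (SLC25A32) and pyrimidine nucleotides (SLC25A33 and SLC25A36) were among those that fell. Of the carriers of glutamate, SLC25A22 fell, whereas SLC25A18 and the aspartate-glutamate carrier SLC25A12 rose. SLC25A30, SLC25A40 and SLC25A42 were among those that rose. Across all 15087 tested genes, 66.4% were called, 35.3% higher and 31.1% lower, so the members' 51.2% lower stood above this background and their 27.9% higher below it. At a fold of 2 or more, 4 members rose (background 17.1%) and 2 fell (background 2.65%). Among these 4, SLC25A24, SLC25A18 and SLC25A34 were sparse, with 33, 29 and 64 counts with chidamide, against 0, 5 and 25 with vehicle. SLC25A18 and SLC25A24 passed the count filter only through Granta-519. The median log2 change was -0.18 over the members and 0.04 over all tested genes.

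This split depended on scaling. With upper-quartile scaling, 16 members rose and 14 fell, and with library-size scaling alone, 16 rose and 15 fell. These scalings moved the median of all genes by 0.15 and 0.13 on the log2 scale. A scaling shifts all genes alike, so the members' median relative to that of all genes, -0.22, is not changed by it. It was -0.14 with limma on the deposited length-scaled score, the count divided by a constant of the gene and by the library total, and -0.27 with no count filter.

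In Granta-519, 8 of 43 tested members rose with chidamide, 21 fell and 14 were not called (edgeR). Carriers of citrate, S-adenosylmethionine and iron (SLC25A28) fell by more than 1 on the log2 scale, whereas SLC25A37, the other iron carrier, rose by 1.05. Of all tested genes 70.9% were called, 39.6% higher and 31.3% lower, against 18.6% and 48.8% of the members. At a fold of 2 or more, 3 members rose (background 18.2%) and 4 fell (background 2.41%). Among these 3, SLC25A27 and SLC25A21 were sparse, with 55 and 112 counts with chidamide, against 3 and 56 with vehicle. The median log2 change was -0.14 over the members and 0.08 over all tested genes, a difference of -0.22 that was -0.18 with limma on the score and -0.30 with no count filter.

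Summed over all members, the level under the JeKo-1 label was 4188, 4298 and 4231 CPM with chidamide, against 4735, 4840 and 4699 CPM with vehicle. Granta-519 libraries held 3671, 3640 and 3489 CPM with chidamide, against 4579, 4545 and 4481 CPM with vehicle. With TMM-scaled library sizes the sums did not overlap between treatments in either line. With upper-quartile scaling they did overlap under the JeKo-1 label, at 4388 ± 44.7 CPM with chidamide and 4452 ± 94.2 CPM with vehicle (SD, n = 3). SLC25A6 alone averaged 1377 CPM with chidamide and 2093 CPM with vehicle in Granta-519, and so weighs heavily in the sums there. No p is given for a sum, and under library-size scaling the JeKo-1 label means stood closer, at 4331 CPM with chidamide and 4439 CPM with vehicle. In such bulk libraries a smaller share of cells with a transcript and less of it per cell cannot be told apart.

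Both lines together placed 15 members (34.9%) lower in both, against 22.4% of all tested genes. These were SLC25A1, SLC25A5, SLC25A6, SLC25A11, SLC25A14, SLC25A16, SLC25A17, SLC25A26, SLC25A28, SLC25A33, SLC25A36, SLC25A38, SLC25A39, SLC25A43 and SLC25A44. This count depended on scaling. With upper-quartile scaling SLC25A6, SLC25A16, SLC25A17, SLC25A36 and SLC25A43 lost their call under the JeKo-1 label, and SLC25A39 lost its call in Granta-519. The share of all genes lower in both was not computed under that scaling. Only 4 members (9.30%) were higher in both, against 24.1% of all genes: SLC25A12, SLC25A15, SLC25A27 and SLC25A45. Another 4 (9.30%, against 5.16% of all genes) were called in opposite directions. The remaining 20 comprised 11 called under the JeKo-1 label alone, 6 called in Granta-519 alone and 3 called in neither.

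**Figure D1:**
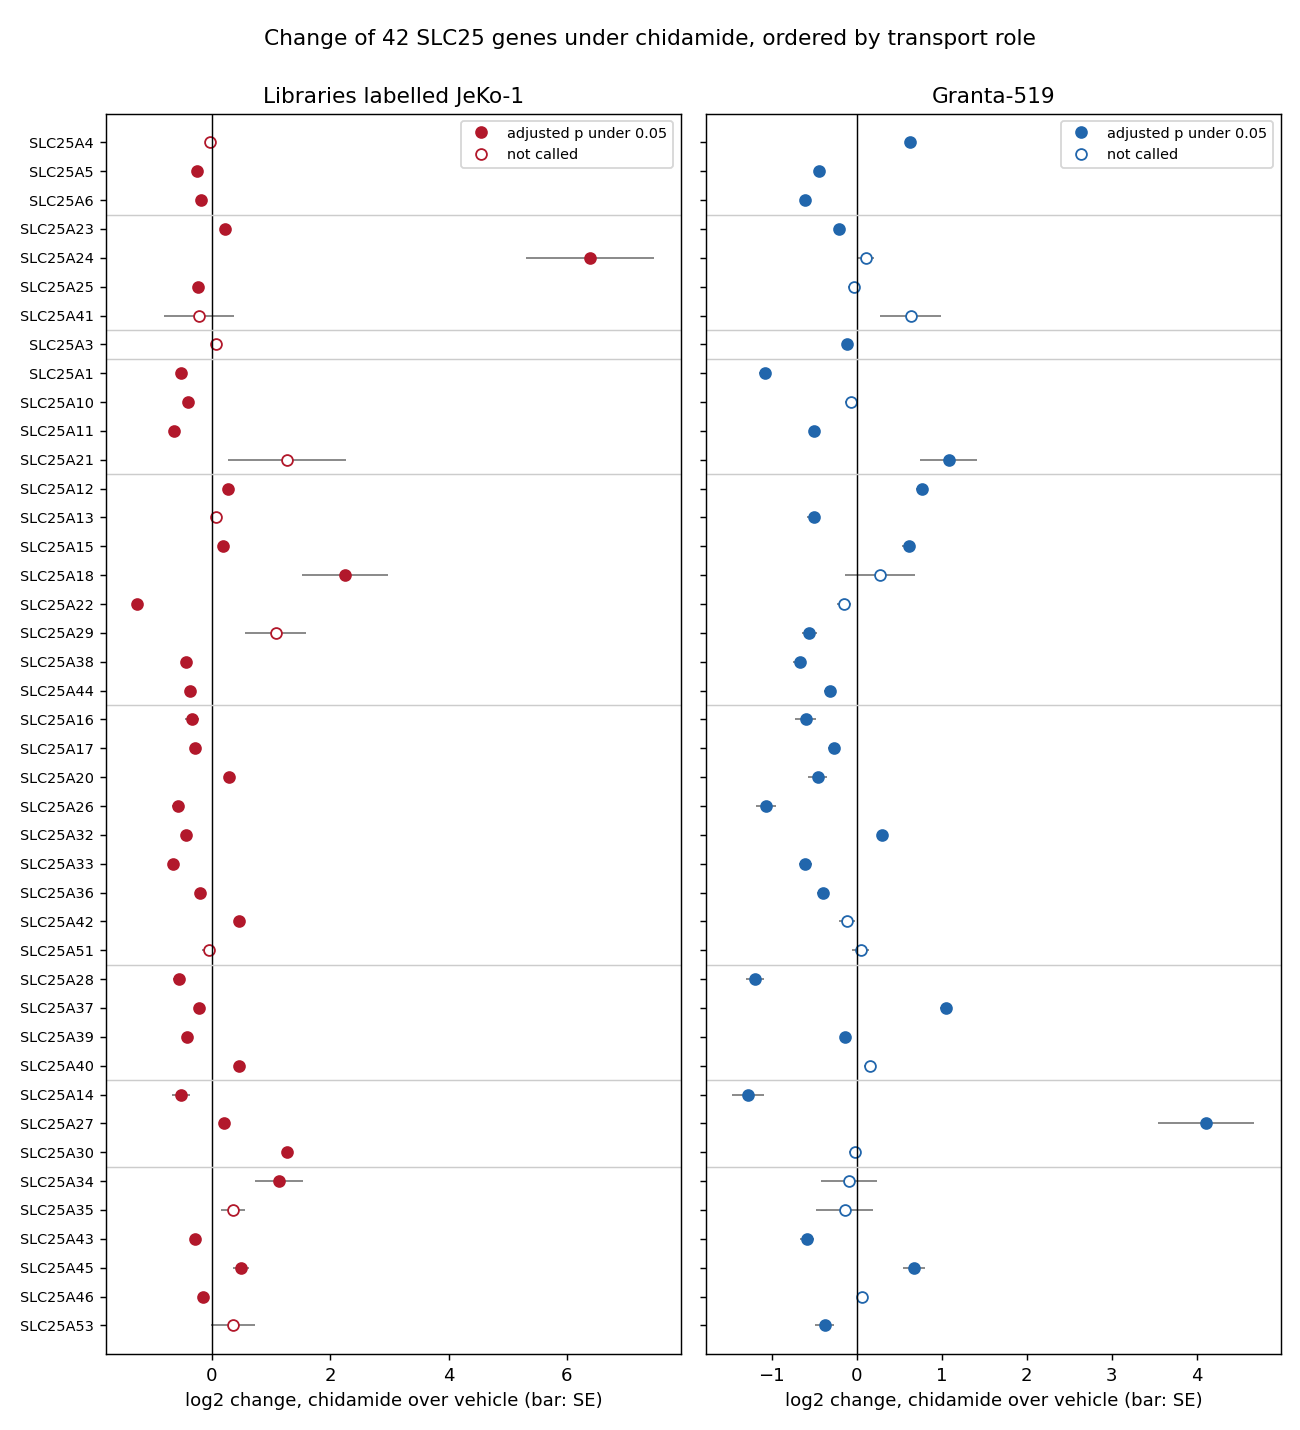
Log2 change (chidamide over vehicle) of 42 tested SLC25 genes under the JeKo-1 label (left) and in Granta-519 (right), ordered by transport role, with grey lines between roles and bars for the SE; the horizontal scales of the panels differ. Filled points passed an edgeR adjusted p of 0.05. Most filled points lie left of 0 in both panels, 21 of 33 and 21 of 29. The far right points, SLC25A24 and SLC25A27, rest on vehicle groups with 0 and 3 counts and their fitted sizes depend on the prior count.

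Promoters of 4 members, chosen after their values were seen, are shown because the series concerns MYC, which with its partner MAX binds the E-box CACGTG, and because 3 of the 4 genes fell in both lines while SLC25A51 was called in neither. SLC25A33 and SLC25A36 carry pyrimidine nucleotides, SLC25A38 carries glycine for haem synthesis, and SLC25A51 carries NAD. Each sequence is 300 bases, from 250 before to 50 after the annotated start of the gene, 5′ to 3′ on the strand of the gene, from RefSeq on build GRCh38.p14, whereas the counts were made on hg19. The E-box is in capitals. The windows are chr1:9539215-9539514 (plus strand) for SLC25A33, chr3:39383120-39383419 (plus) for SLC25A38, chr3:140941586-140941885 (plus) for SLC25A36 and chr9:37904078-37904377 (minus) for SLC25A51.
SLC25A33: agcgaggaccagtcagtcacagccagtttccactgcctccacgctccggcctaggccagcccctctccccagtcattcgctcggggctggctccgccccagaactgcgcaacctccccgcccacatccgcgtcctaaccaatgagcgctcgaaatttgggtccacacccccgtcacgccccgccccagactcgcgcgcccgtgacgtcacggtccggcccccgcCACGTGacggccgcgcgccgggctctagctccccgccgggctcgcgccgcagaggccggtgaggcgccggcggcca
SLC25A38: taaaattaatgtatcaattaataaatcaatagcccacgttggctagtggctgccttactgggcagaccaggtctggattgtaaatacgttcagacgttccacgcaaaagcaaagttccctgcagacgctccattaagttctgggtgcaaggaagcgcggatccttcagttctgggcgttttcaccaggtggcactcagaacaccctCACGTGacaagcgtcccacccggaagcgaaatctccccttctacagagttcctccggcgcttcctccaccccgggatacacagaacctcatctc
SLC25A36: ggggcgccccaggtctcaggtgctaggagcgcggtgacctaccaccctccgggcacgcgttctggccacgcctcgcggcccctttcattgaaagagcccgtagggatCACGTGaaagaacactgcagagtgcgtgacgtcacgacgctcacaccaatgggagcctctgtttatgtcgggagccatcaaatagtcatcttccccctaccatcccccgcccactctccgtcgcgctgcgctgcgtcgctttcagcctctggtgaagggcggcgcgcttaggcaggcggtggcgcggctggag
SLC25A51: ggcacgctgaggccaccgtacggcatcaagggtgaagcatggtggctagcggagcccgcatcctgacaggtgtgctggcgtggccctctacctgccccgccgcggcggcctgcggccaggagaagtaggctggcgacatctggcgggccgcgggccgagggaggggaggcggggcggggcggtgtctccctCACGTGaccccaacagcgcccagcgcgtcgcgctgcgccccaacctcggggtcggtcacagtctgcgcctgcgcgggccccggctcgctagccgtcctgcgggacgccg

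The E-box began 26 bases before the gene start in SLC25A33, 44 before it in SLC25A38, 143 before it in SLC25A36 and 59 before it in SLC25A51. CACGTG reads the same on both strands. It was found in 6 of 36 tested members with a promoter entry (16.7%), against 10.0% of 10858 tested genes and 7.43% of all 27305 promoters in the table. Besides these 4 they were SLC25A46, called only under the JeKo-1 label, and SLC25A13, called only in Granta-519. Of the 15 members lower in both lines, an E-box was found only in the 3 shown here, SLC25A33, SLC25A36 and SLC25A38. Members without a promoter entry could not be searched. CCAAT, searched on both strands and unable to overlap a CACGTG site, stood in 52.8% of the same 36 promoters and in 36.5% of those of tested genes. A match of letters describes the window and shows no binding. MYC itself averaged 203 ± 5.91 CPM with chidamide and 329 ± 8.48 CPM with vehicle under the JeKo-1 label, and 124 ± 3.63 CPM with chidamide and 85.1 ± 1.03 CPM with vehicle in Granta-519 (SD, n = 3). It fell in the first (edgeR adjusted p = 3.03e-21) and rose in the second (edgeR adjusted p = 4.34e-15).

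Adenine nucleotide translocases exchange ADP from the cytosol for ATP made in the mitochondrion. Per length, on the deposited length-scaled score, SLC25A6 and SLC25A5 ranked first and second among the members in all 4 groups, followed by the phosphate carrier SLC25A3 and then SLC25A39. SLC25A6 scored 98.3 ± 2.82 with chidamide and 101 ± 5.11 with vehicle under the JeKo-1 label, and 94.3 ± 5.02 with chidamide and 144 ± 4.96 with vehicle in Granta-519 (SD, n = 3). The score divides a count by a constant of the gene and by the library total, and the labels do not say how that constant arose. The 4 translocases together held 46.0% to 48.6% of the members' CPM in the JeKo-1-labelled libraries, and 51.2% to 53.5% with chidamide against 58.5% to 60.3% with vehicle in Granta-519.

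SLC25A5, the translocase of growing cells, stood at 455, 458 and 453 CPM with chidamide, against 560, 548 and 524 CPM with vehicle, under the JeKo-1 label. In Granta-519 it stood at 413, 394 and 384 CPM with chidamide, against 536, 546 and 533 CPM with vehicle. Every chidamide library lay below every vehicle library of its line. The log2 change was -0.26 ± 0.04 (SE) under the JeKo-1 label (edgeR adjusted p = 3.12e-08) and -0.44 ± 0.04 in Granta-519 (edgeR adjusted p = 3.31e-15).

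SLC25A6, the widely expressed translocase, held 1401, 1483 and 1419 CPM with chidamide, against 1555, 1724 and 1593 CPM with vehicle, under the JeKo-1 label. In Granta-519 it held 1430, 1411 and 1289 CPM with chidamide, against 2147, 2119 and 2013 CPM with vehicle. The Granta-519 groups were far apart, with a log2 change of -0.60 ± 0.04 (edgeR adjusted p = 9.89e-20). Under the JeKo-1 label it was -0.18 ± 0.04 (edgeR adjusted p = 6.63e-05), and this call was lost with upper-quartile and library-size scaling and with limma on the score. The change differed between lines by 0.43 ± 0.05 (edgeR adjusted p = 6.97e-09). SLC25A6 lies in the region shared by the X and Y chromosomes, and SLC25A5 and SLC25A6 have near-identical pseudogene copies, so the counting of both is uncertain.

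SLC25A4, the translocase of heart and muscle, had 74.9, 78.6 and 76.4 CPM with chidamide and 74.9, 78.1 and 83.4 CPM with vehicle under the JeKo-1 label, and these groups overlapped. In Granta-519 it had 120, 117 and 113 CPM with chidamide, against 77.5, 73.9 and 75.8 CPM with vehicle. It rose there by 0.63 ± 0.05 on the log2 scale (edgeR adjusted p = 1.17e-15), while SLC25A5 and SLC25A6 fell in the same libraries. The changes of SLC25A4 differed between lines (-0.66 ± 0.08, edgeR adjusted p = 1.71e-10).

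SLC25A3 brings in the phosphate used for ATP synthesis. It had 680, 690 and 685 CPM with chidamide and 674, 651 and 642 CPM with vehicle under the JeKo-1 label, where it was not called (log2 change 0.06, edgeR adjusted p = 0.125). There 8 of 22 alternatives called it higher, among them upper-quartile scaling (0.21, edgeR adjusted p = 1.73e-06), library-size scaling and DESeq2. The Granta-519 values were 480, 482 and 477 CPM with chidamide, against 512, 509 and 535 CPM with vehicle. The fall of 0.11 ± 0.04 in Granta-519 (log2, edgeR adjusted p = 0.0056) was lost with median-of-ratios and upper-quartile scaling.

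**Figure D2:**
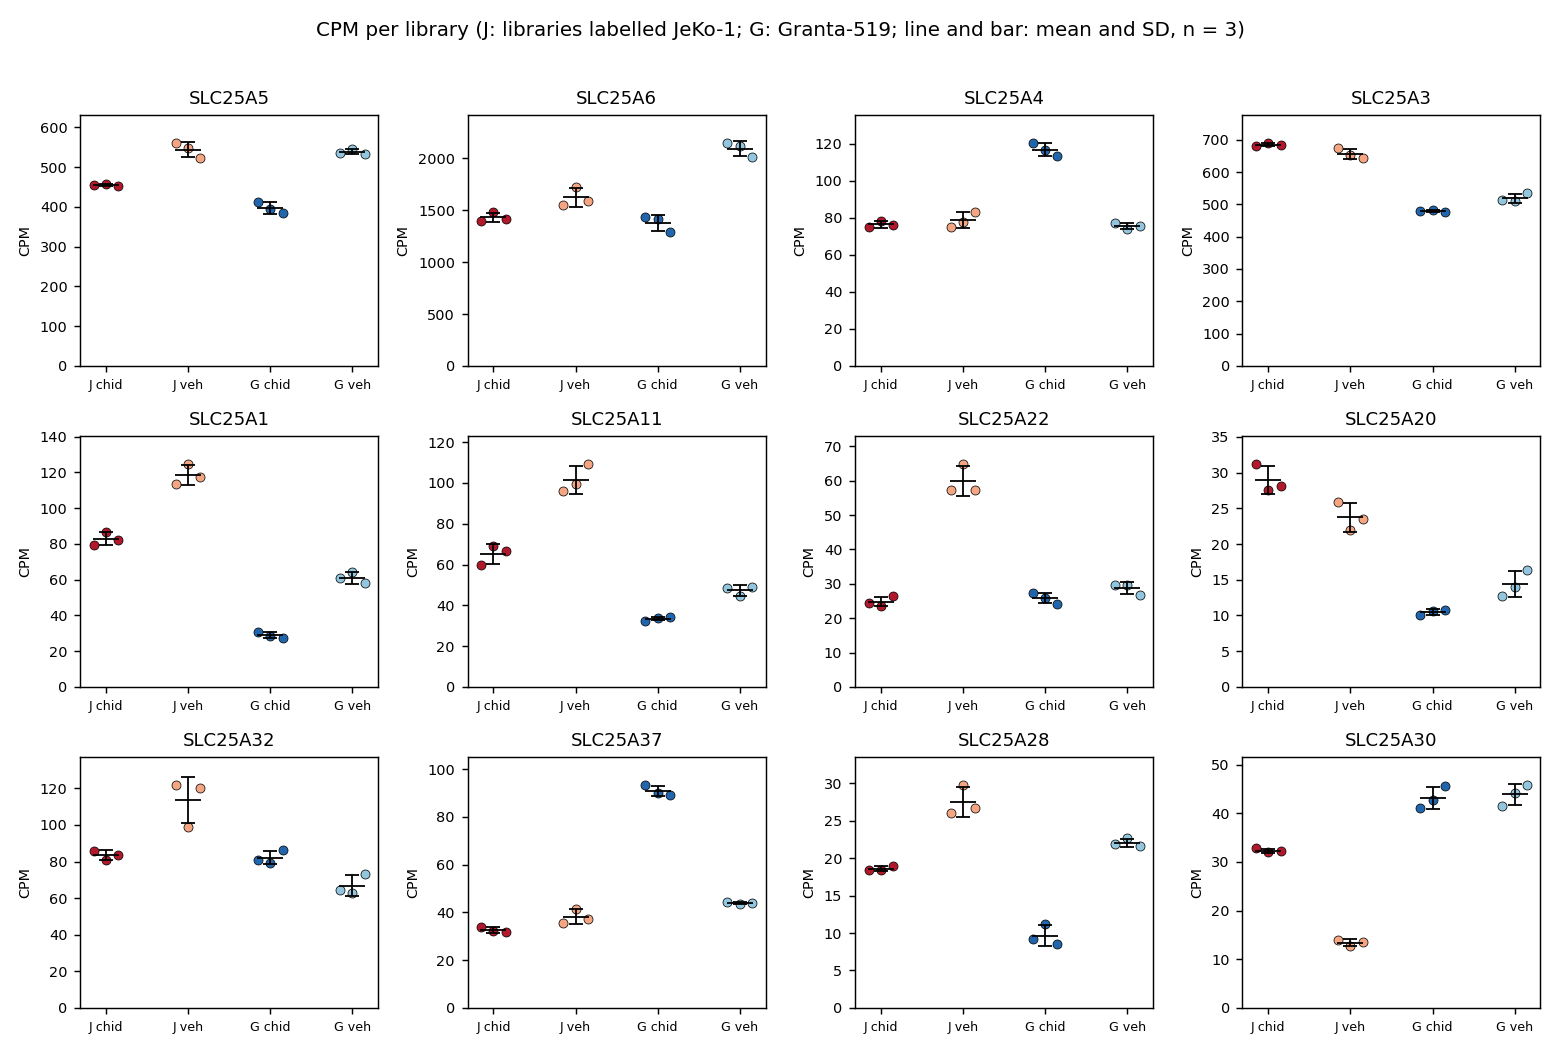
CPM of 12 members in each library, on axes from 0, with chidamide left of vehicle for the JeKo-1 label (J) and Granta-519 (G); lines and bars give the mean and SD of 3 libraries. SLC25A5 and SLC25A1 are lower with chidamide in both lines. SLC25A22 is lower with chidamide under the JeKo-1 label, SLC25A30 is higher there, SLC25A32 and SLC25A20 move in opposite directions in the lines, and SLC25A37 and SLC25A4 are higher with chidamide in Granta-519.

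Di- and tricarboxylate carriers connect the citric acid cycle with the cytosol. Of the 4, 3 fell and none rose under the JeKo-1 label (31.1% and 35.3% of all tested genes). In Granta-519, 2 fell and SLC25A21 rose (31.3% and 39.6% of all tested genes). SLC25A1, which exports citrate for fatty acid synthesis, had 79.4, 86.6 and 82.4 CPM with chidamide, against 113, 125 and 117 CPM with vehicle, under the JeKo-1 label. Its Granta-519 libraries had 30.6, 28.5 and 27.3 CPM with chidamide, against 60.7, 64.5 and 57.9 CPM with vehicle. It fell by 0.52 ± 0.06 under the JeKo-1 label (log2, edgeR adjusted p = 5.57e-12) and by 1.08 ± 0.07 in Granta-519 (edgeR adjusted p = 3.77e-21). Both falls passed under every alternative run, and they differed (0.57 ± 0.09, edgeR adjusted p = 2.97e-07).

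SLC25A11, the oxoglutarate carrier of the malate-aspartate shuttle, had 59.6, 68.9 and 66.8 CPM with chidamide, against 95.8, 99.7 and 109 CPM with vehicle, under the JeKo-1 label. Granta-519 libraries had 32.5, 33.8 and 34.2 CPM with chidamide, against 48.5, 44.4 and 48.9 CPM with vehicle. It fell in both lines, by 0.64 ± 0.06 and 0.50 ± 0.07 on the log2 scale (edgeR adjusted p = 7.12e-14 and 8.61e-09), and a difference between them was not called (-0.14 ± 0.09, edgeR adjusted p = 0.223). SLC25A10, the dicarboxylate carrier, had 55.2, 59.5 and 58.4 CPM with chidamide, against 72.9, 82 and 74.7 CPM with vehicle, under the JeKo-1 label. Its Granta-519 groups overlapped, at 41.3, 41.1 and 37.7 CPM with chidamide and 43.5, 43.5 and 39.3 CPM with vehicle. The fall under the JeKo-1 label was 0.41 ± 0.06 (log2, edgeR adjusted p = 8.54e-08). SLC25A21, a carrier of oxodicarboxylates, had 2.40, 2.61 and 2.71 CPM with chidamide, against 1.04, 1.39 and 1.20 CPM with vehicle, in Granta-519, a rise of 1.08 ± 0.33 (log2, edgeR adjusted p = 0.00353). Under the JeKo-1 label it had 0.177, 0 and 0.382 CPM (9 counts) with chidamide and 0, 0.225 and 0 CPM (3 counts) with vehicle, a ratio of 2.57 with a 95% counting interval of 0.642 to 14.8.

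Of 8 tested amino acid carriers, 3 rose and 3 fell under the JeKo-1 label, near the share of all tested genes (35.3% higher and 31.1% lower). In Granta-519, 2 rose and 4 fell (39.6% and 31.3% of all tested genes). The aspartate-glutamate carriers SLC25A12 and SLC25A13 exchange the same substrates. SLC25A12 had 65.9, 66.7 and 71.9 CPM with chidamide, against 61.5, 54.3 and 52.4 CPM with vehicle, under the JeKo-1 label. Granta-519 libraries had 70.1, 63.4 and 67.1 CPM with chidamide, against 39.1, 37.1 and 41.9 CPM with vehicle. It rose in both lines, by 0.28 ± 0.06 and 0.77 ± 0.07 on the log2 scale (edgeR adjusted p = 0.000151 and 3.64e-15). SLC25A13 had 48.9, 51.3 and 47.5 CPM with chidamide and 48.3, 44.8 and 47 CPM with vehicle under the JeKo-1 label, where it was called higher only with upper-quartile and library-size scaling and with limma on the score. In Granta-519 it had 27.5, 27.3 and 26 CPM with chidamide, against 39.5, 34.7 and 40.6 CPM with vehicle. It thus fell there by 0.51 ± 0.08 (log2, edgeR adjusted p = 3.74e-08) in the libraries in which SLC25A12 rose.

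SLC25A22, a carrier that brings glutamate into mitochondria, had the most negative change of the tested members under the JeKo-1 label. It stood at 24.5, 23.6 and 26.4 CPM with chidamide, against 57.4, 64.9 and 57.2 CPM with vehicle. In Granta-519 it stood at 27.4, 25.9 and 24.3 CPM with chidamide and 29.6, 29.7 and 26.7 CPM with vehicle. The change was -1.27 ± 0.08 under the JeKo-1 label (log2, edgeR adjusted p = 1.83e-21) and -0.15 ± 0.08 in Granta-519 (edgeR adjusted p = 0.0953, called lower in 3 of 22 alternatives), and the difference of -1.12 ± 0.11 was called (edgeR adjusted p = 2.53e-12). The other glutamate carrier, SLC25A18, was sparse. It had 0.473, 0.925 and 0.509 CPM (29 counts) with chidamide, against 0.0684, 0.300 and 0 CPM (5 counts) with vehicle, under the JeKo-1 label, where it rose (edgeR adjusted p = 0.00547). In Granta-519 it was not called, at 1.44, 0.989 and 0.949 CPM with chidamide and 0.391, 1.46 and 0.933 CPM with vehicle.

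SLC25A38 is needed for haem synthesis through its transport of glycine. It had 42.4, 42.9 and 46.1 CPM with chidamide, against 59.5, 63.4 and 54.7 CPM with vehicle, under the JeKo-1 label. Granta-519 libraries had 21.4, 23.5 and 23.3 CPM with chidamide, against 36.4, 35.4 and 37 CPM with vehicle. It fell in both lines, by 0.44 ± 0.07 and 0.67 ± 0.08 on the log2 scale (edgeR adjusted p = 1.37e-07 and 4.09e-11). SLC25A15, the ornithine carrier of the urea cycle, averaged 85.4 ± 1.90 CPM with chidamide and 74.8 ± 5.52 CPM with vehicle under the JeKo-1 label, and 37.3 ± 4.13 CPM with chidamide and 24.5 ± 0.438 CPM with vehicle in Granta-519 (SD, n = 3). The smaller of these rises lost its call without vehicle replicate 3 of the JeKo-1 label (edgeR adjusted p = 0.0907, log2 change 0.13).

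Of 10 tested carriers of cofactors, carnitine and nucleotides, 7 fell and 2 rose under the JeKo-1 label, where 31.1% of all tested genes fell and 35.3% rose. Of the 7 falls, those of SLC25A16, SLC25A17 and SLC25A36 lost their call with upper-quartile scaling. In Granta-519, 6 fell and 1 rose, against 31.3% and 39.6% of all tested genes. SLC25A32, named for folate transport, was called in opposite directions. It had 86, 80.9 and 83.8 CPM with chidamide, against 122, 99 and 120 CPM with vehicle, under the JeKo-1 label. Its Granta-519 libraries had 80.6, 79.5 and 86 CPM with chidamide, against 64.6, 62.7 and 73.1 CPM with vehicle. With chidamide the levels of both lines lay in the same range. The changes were -0.44 ± 0.06 and 0.30 ± 0.06 on the log2 scale (edgeR adjusted p = 1.27e-08 and 5.56e-05), and they differed (-0.74 ± 0.09, edgeR adjusted p = 1.35e-09).

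SLC25A20, which exchanges carnitine for acylcarnitine in fatty acid oxidation, moved the other way round. It had 31.2, 27.5 and 28.1 CPM with chidamide, against 25.8, 21.9 and 23.4 CPM with vehicle, under the JeKo-1 label, a rise of 0.29 ± 0.09 (log2, edgeR adjusted p = 0.00437). Granta-519 libraries had 10, 10.6 and 10.8 CPM with chidamide, against 12.8, 14 and 16.4 CPM with vehicle, a fall of 0.46 ± 0.11 (log2, edgeR adjusted p = 0.000229). The difference between lines was 0.75 ± 0.14 (edgeR adjusted p = 2.11e-05).

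The pyrimidine nucleotide carriers, whose promoters are printed above, fell in both lines. SLC25A33 had 41.5, 36.2 and 38.2 CPM with chidamide, against 64.8, 57.2 and 60.5 CPM with vehicle, under the JeKo-1 label. In Granta-519 it had 24.1, 26.8 and 25.2 CPM with chidamide, against 38.8, 34.4 and 42.5 CPM with vehicle. Its changes of -0.65 ± 0.07 and -0.60 ± 0.08 (log2, edgeR adjusted p = 1.66e-11 and 2.18e-09) lay close together, with a difference of -0.05 ± 0.11. SLC25A36 had 102, 98.2 and 100.4 CPM with chidamide, against 118, 108 and 121 CPM with vehicle, under the JeKo-1 label. Its Granta-519 libraries had 42.8, 38.7 and 40.5 CPM with chidamide, against 52, 51.8 and 57.5 CPM with vehicle. It fell by 0.21 ± 0.05 and 0.40 ± 0.06 (log2, edgeR adjusted p = 0.000824 and 1.44e-07), and the first of these calls was lost with upper-quartile and library-size scaling and with limma on the score.

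SLC25A26, which carries S-adenosylmethionine, had 11.2, 11.9 and 12.8 CPM with chidamide, against 15.2, 19.5 and 18.9 CPM with vehicle, under the JeKo-1 label. The Granta-519 values were 8.36, 9.54 and 8.20 CPM with chidamide, against 17.9, 18.8 and 18.0 CPM with vehicle. A difference between the vehicle lines was not called (log2 difference -0.04 ± 0.10), and the fall was 0.58 ± 0.11 under the JeKo-1 label and 1.07 ± 0.11 in Granta-519 (log2, edgeR adjusted p = 6.38e-06 and 3.26e-12). SLC25A51 had 11.3, 13.5 and 13.6 CPM with chidamide and 14.3, 12.8 and 12.6 CPM with vehicle under the JeKo-1 label, and 15.1, 17.4 and 17.3 CPM with chidamide and 16.4, 14.8 and 17.2 CPM with vehicle in Granta-519, and was called in neither. It is nearly identical to SLC25A52, so reads may have been split or dropped between them.

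Mitoferrins bring iron into mitochondria for haem and iron-sulphur clusters. SLC25A37, mitoferrin 1, is the form of red cell precursors, and SLC25A28, mitoferrin 2, is found in most tissues. In Granta-519 they moved in opposite directions. SLC25A37 had 93.3, 90.1 and 89.3 CPM with chidamide, against 44.5, 43.5 and 44.1 CPM with vehicle, a rise of 1.05 ± 0.06 (log2, edgeR adjusted p = 1.23e-21). SLC25A28 had 9.25, 11.2 and 8.47 CPM with chidamide, against 21.9, 22.7 and 21.6 CPM with vehicle, a fall of 1.20 ± 0.10 (log2, edgeR adjusted p = 2.83e-15). The groups were wide apart for both genes.

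Both mitoferrins fell under the JeKo-1 label. SLC25A37 had 33.9, 32.2 and 31.8 CPM with chidamide, against 35.4, 41.5 and 37.3 CPM with vehicle, a fall of 0.22 ± 0.07 (log2, edgeR adjusted p = 0.00465). That call was lost with upper-quartile and library-size scaling, with limma on the score and without vehicle replicate 2 of the JeKo-1 label. SLC25A28 had 18.4, 18.4 and 19 CPM with chidamide, against 26, 29.8 and 26.7 CPM with vehicle, a fall of 0.56 ± 0.09 (log2, edgeR adjusted p = 3.04e-07). Lines differed in the change of SLC25A37 (-1.27 ± 0.09, edgeR adjusted p = 7.78e-17) and of SLC25A28 (0.63 ± 0.14, edgeR adjusted p = 0.000171). Erythroid markers (5 genes) were near 0 in all libraries, summing in Granta-519 to 1.16 to 1.55 CPM with chidamide, against 0.0666 to 0.506 CPM with vehicle, with HBB at 0 counts there.

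SLC25A39 and SLC25A40, which import glutathione, moved apart under the JeKo-1 label. SLC25A39 had 187, 184 and 176 CPM with chidamide, against 248, 242 and 239 CPM with vehicle, a fall of 0.41 ± 0.05 (log2, edgeR adjusted p = 4.67e-11). SLC25A40 had 66, 65.2 and 67.9 CPM with chidamide, against 47.4, 42.6 and 56.0 CPM with vehicle, a rise of 0.45 ± 0.07 (log2, edgeR adjusted p = 4.10e-07). In Granta-519 SLC25A39 had 92, 93.3 and 79.2 CPM with chidamide and 99.2, 99.7 and 92.3 CPM with vehicle. These groups overlapped, and the fall of 0.14 ± 0.05 (log2, edgeR adjusted p = 0.0166) was lost with DESeq2, with median-of-ratios and upper-quartile scaling, and without chidamide replicate 3, vehicle replicate 1 or vehicle replicate 2. SLC25A40 had 52.3, 51.8 and 61.4 CPM with chidamide and 49.1, 46.4 and 53.2 CPM with vehicle there, and was not called (log2 change 0.15, edgeR adjusted p = 0.0558), but 14 of 22 alternatives called it higher, with an edgeR adjusted p down to 0.00202 (upper-quartile scaling).

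The ATP-Mg/phosphate carriers, which load mitochondria with adenine nucleotides, were measured through 4 genes. SLC25A23 had 101, 107 and 111 CPM with chidamide, against 93, 91.5 and 90.1 CPM with vehicle, under the JeKo-1 label. Its Granta-519 libraries had 68.8, 71.3 and 65.1 CPM with chidamide, against 79.8, 80.8 and 76.3 CPM with vehicle. The changes were opposite, 0.21 ± 0.05 and -0.21 ± 0.06 on the log2 scale (edgeR adjusted p = 0.000369 and 0.000766), and they differed by 0.42 ± 0.08 (edgeR adjusted p = 8.74e-06). The fall in Granta-519 was lost with upper-quartile scaling (log2 change -0.11, edgeR adjusted p = 0.0675).

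SLC25A24 was nearly confined to Granta-519 among these libraries. It had 28.5, 28 and 30.6 CPM with chidamide and 25.9, 25.6 and 29.5 CPM with vehicle there, and was not called (edgeR adjusted p = 0.33). Under the JeKo-1 label it had 1.18, 0.569 and 0.318 CPM with chidamide, against 0 in all 3 vehicle libraries. These are 33 counts against 0, at least 9.43-fold higher with the drug when the vehicle group is set at 3 counts (edgeR adjusted p = 9.75e-07). Even so, the treated level stayed far below that of Granta-519. SLC25A25 averaged 29.1 ± 1.43 CPM with chidamide and 34.1 ± 2.64 CPM with vehicle under the JeKo-1 label (SD, n = 3), and its call was lost with upper-quartile and library-size scaling, with limma on the score, without chidamide replicate 3 (edgeR log2 change -0.18) and without vehicle replicate 2. The strand setting was not given, so its reads and those of SLC25A25-AS1, at 27.2 CPM with chidamide and 38.9 CPM with vehicle in the same libraries, cannot be told apart.

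SLC25A14, SLC25A27 and SLC25A30 resemble the uncoupling proteins. SLC25A30 rose under the JeKo-1 label, with 32.8, 31.9 and 32.1 CPM with chidamide, against 14, 12.7 and 13.5 CPM with vehicle. In Granta-519 it stood at 41, 42.8 and 45.6 CPM with chidamide and 41.6, 44.2 and 45.8 CPM with vehicle. The rise of 1.27 ± 0.09 under the JeKo-1 label (log2, edgeR adjusted p = 3.93e-19) brought the level nearer to that of Granta-519, where it was not called (-0.02 ± 0.07). The difference was 1.29 ± 0.11 (edgeR adjusted p = 2.53e-14).

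SLC25A27 was abundant under the JeKo-1 label, at 54.9, 46.5 and 55.5 CPM with chidamide, against 43.8, 44.5 and 47.8 CPM with vehicle. The rise of 0.21 ± 0.08 (log2, edgeR adjusted p = 0.0192) was lost without chidamide replicate 1, chidamide replicate 3 or vehicle replicate 1. Granta-519 libraries had 55 counts with chidamide and 3 with vehicle, a ratio of 19.4 with a 95% counting interval of 6.32 to 97.2. These were 1.51, 1.13 and 1.15 CPM with chidamide, against 0, 0.190 and 0 CPM with vehicle.

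SLC25A14 was low and fell in both lines. It had 5.91, 5.55 and 6.56 CPM with chidamide, against 9.23, 7.65 and 9.11 CPM with vehicle, under the JeKo-1 label, and 2.12, 3.04 and 2.17 CPM with chidamide, against 6.32, 6.01 and 5.40 CPM with vehicle, in Granta-519. Its change in Granta-519, -1.28 ± 0.19 (log2, edgeR adjusted p = 2.91e-08), was the most negative of the members there. UCP2, an uncoupling protein under another symbol, averaged 426 ± 5.38 CPM with chidamide and 303 ± 15.2 CPM with vehicle under the JeKo-1 label, and 97.5 ± 4.62 CPM with chidamide and 123 ± 5.60 CPM with vehicle in Granta-519 (SD, n = 3).

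**Figure D3:**
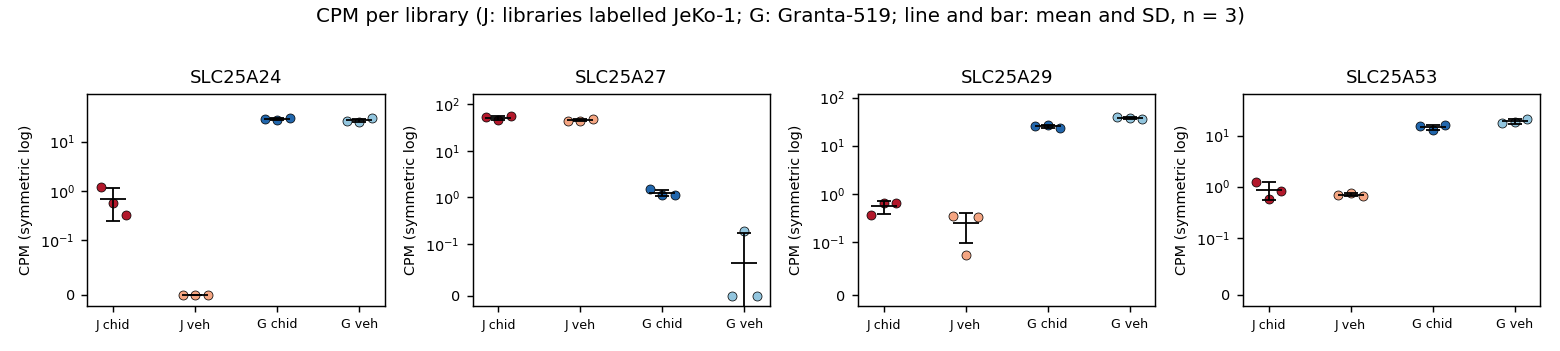
CPM per library of 4 members whose levels differ most between the lines, on a symmetric log axis that includes 0, with chidamide left of vehicle for the JeKo-1 label (J) and Granta-519 (G); lines and bars give the mean and SD of 3 libraries, and bars that pass 0 are cut. SLC25A24, SLC25A29 and SLC25A53 are high in Granta-519 and at or below 1.24 CPM under the JeKo-1 label, and SLC25A27 is the reverse.

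Among the remaining 7 carriers, SLC25A45 rose in both lines. It had 12.7, 16.0 and 15 CPM with chidamide, against 9.50, 13.7 and 7.62 CPM with vehicle, under the JeKo-1 label, where the groups overlapped (log2 change 0.49 ± 0.13, edgeR adjusted p = 0.00142). In Granta-519 it had 19.2, 16.4 and 17.8 CPM with chidamide, against 10.9, 12.5 and 10 CPM with vehicle (0.67 ± 0.13, edgeR adjusted p = 9.08e-06). SLC25A34 was sparse, at 1.06, 1.85 and 1.27 CPM with chidamide, against 0.752, 0.750 and 0.331 CPM with vehicle, under the JeKo-1 label, and at 0.959, 1.55 and 1.76 CPM with chidamide and 1.17, 1.77 and 1.60 CPM with vehicle in Granta-519, where it was not called. Its rise under the JeKo-1 label (log2 change 1.14 ± 0.40, edgeR adjusted p = 0.0115) was lost without chidamide replicate 2 (log2 change 0.91) or vehicle replicate 3. SLC25A46, an outer membrane member involved in mitochondrial fission, fell by 0.16 ± 0.05 under the JeKo-1 label (log2, edgeR adjusted p = 0.00632). This call was lost with upper-quartile and library-size scaling, with no count filter, with limma on the score, and without vehicle replicate 1 or vehicle replicate 3. It had 132, 132 and 132 CPM with chidamide, against 151, 133 and 156 CPM with vehicle, and in Granta-519 it was not called.

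The members not given by library include SLC25A16, SLC25A17, SLC25A43 and SLC25A44, which fell in both lines with log2 changes from -0.60 to -0.27. Under the JeKo-1 label the calls of SLC25A16 and SLC25A43 were lost with upper-quartile and library-size scaling and with limma on the score, that of SLC25A17 with upper-quartile scaling, and that of SLC25A16 also without chidamide replicate 1 (log2 change -0.26), chidamide replicate 2 or vehicle replicate 1. SLC25A42, which carries coenzyme A, rose by 0.46 ± 0.10 under the JeKo-1 label (log2, edgeR adjusted p = 4.53e-05) and was not called in Granta-519. SLC25A35 and SLC25A41 were called in neither line.

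The test of the difference between the lines called 27 of 43 members (62.8%), against 39.5% of all tested genes. In 16 the change was more positive under the JeKo-1 label (background 20%), and in 11 it was more negative (background 19.5%). At a fold of 2 or more, 3 were more positive (background 5.96%) and 4 more negative (background 3.45%). SLC25A30, SLC25A29 and SLC25A24 were among the most positive, and SLC25A27, SLC25A37 and SLC25A22 among the most negative. Library-size scaling moved the split to 20 and 8, with the median of all genes shifted by 0.13 on the log2 scale.

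Without the drug, 36 of 43 members differed between the lines (background 79.8%). Under the JeKo-1 label 21 were higher (background 35.5%) and 15 lower (background 44.3%) than in Granta-519, 8 of them higher by a fold of 2 or more (background 12.8%) and 8 lower (background 26.3%). SLC25A18, SLC25A21, SLC25A24, SLC25A29 and SLC25A41 were among those lower by a fold of 2 or more. These genes passed the count filter only through Granta-519, so the filter itself favoured their being lower under the JeKo-1 label. SLC25A39 averaged 243 ± 4.61 CPM under the JeKo-1 label and 97.1 ± 4.15 CPM in Granta-519 (SD, n = 3), a log2 difference of 1.32 ± 0.05 (edgeR adjusted p = 3.04e-31). SLC25A15, SLC25A11, SLC25A36 and SLC25A22 were also higher by at least 2-fold under the JeKo-1 label.

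In the other direction, SLC25A29, a carrier of basic amino acids, averaged 0.249 ± 0.151 CPM under the JeKo-1 label and 37.6 ± 1.51 CPM in Granta-519 (SD, n = 3, edgeR adjusted p = 1.39e-37). In Granta-519 SLC25A29 had 26.1, 27.1 and 23.5 CPM with chidamide, against 39.3, 37 and 36.5 CPM with vehicle, and fell (edgeR adjusted p = 1.35e-07). Under the JeKo-1 label it had 0.355, 0.640 and 0.637 CPM with chidamide and 0.342, 0.0750 and 0.331 CPM with vehicle, and was not called (edgeR adjusted p = 0.0623), though 5 of 21 alternatives called it higher. SLC25A53, a carrier with no assigned substrate, averaged 0.699 ± 0.0455 CPM under the JeKo-1 label and 19.2 ± 2.09 CPM in Granta-519 (SD, n = 3, edgeR adjusted p = 7.18e-29). Its fall in Granta-519, with 15.7, 12.9 and 15.8 CPM with chidamide, against 17.7, 18.3 and 21.6 CPM with vehicle, was lost without chidamide replicate 2 (edgeR adjusted p 0.00286 with it and 0.0587 without). Libraries of the JeKo-1 label held 1.24, 0.569 and 0.827 CPM with chidamide and 0.684, 0.750 and 0.663 CPM with vehicle. SLC25A24 had 0 counts under the JeKo-1 label and 1244 in Granta-519, at least 359.7-fold lower under the label. SLC25A27 had 1812 counts under the JeKo-1 label and 3 in Granta-519, a ratio of 696 with a 95% counting interval of 238 to 3380. A filter on the 6 JeKo-1-labelled libraries alone would have kept 38 of the 43 members. The other 5, SLC25A18, SLC25A21, SLC25A24, SLC25A29 and SLC25A41, were tested through Granta-519, and all were called lower under the JeKo-1 label.

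**Figure D4:**
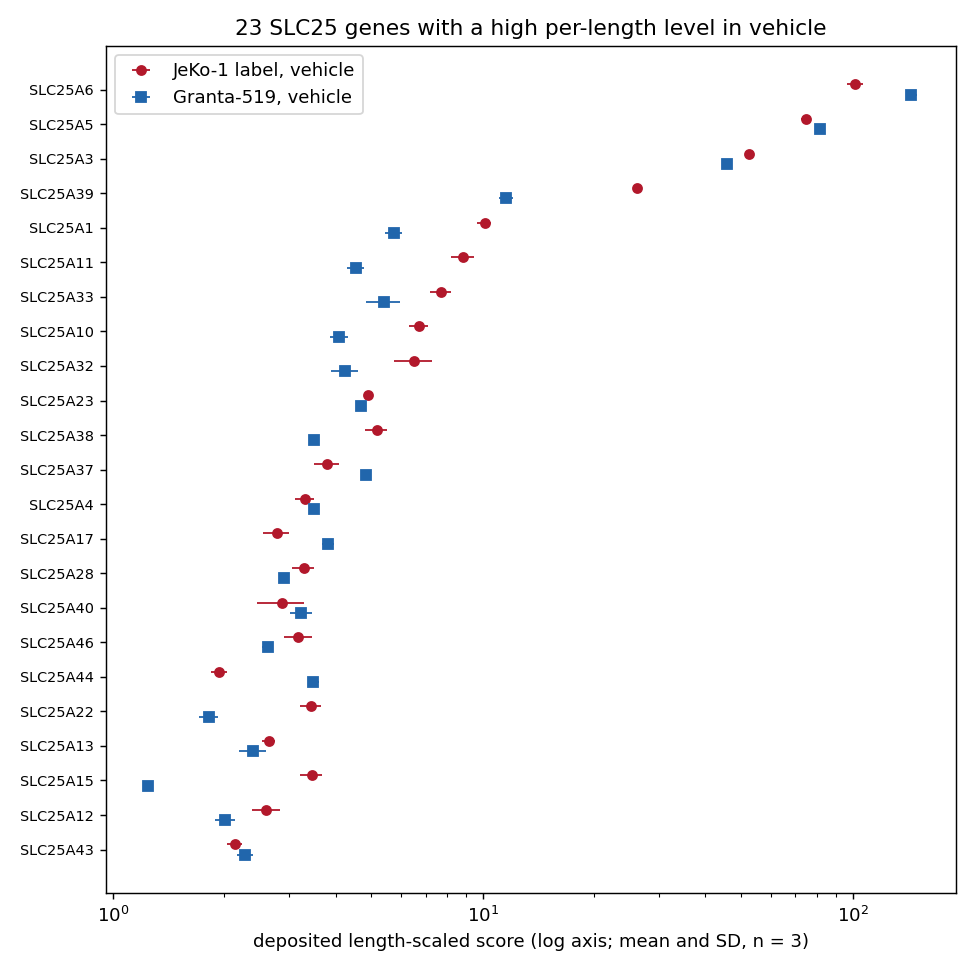
Deposited length-scaled score (log axis, mean and SD of 3 libraries) of 23 members with a high level in vehicle, for the JeKo-1 label (circles) and Granta-519 (squares). SLC25A6, SLC25A5 and SLC25A3 stand above the others in both lines, and SLC25A39 is higher under the JeKo-1 label.

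Genes that work with the carriers were taken from lists. Counts and medians for these and the other lists below come from TMM scaling alone, since the alternatives were not run for them. The carrier import machinery, which threads carriers through the outer membrane and into the inner one, had 13 tested genes. Of these, 9 fell and 1 rose under the JeKo-1 label, with a median log2 change of -0.40, and in Granta-519 10 fell and 1 rose, with a median of -0.27. Of all tested genes, 31.1% fell and 35.3% rose under the JeKo-1 label, and 31.3% fell and 39.6% rose in Granta-519. The median over all tested genes was 0.04 and 0.08 in these comparisons. TOMM40, the pore of the outer membrane translocase, averaged 203 ± 8.16 CPM with chidamide and 476 ± 38.6 CPM with vehicle under the JeKo-1 label, and 137 ± 9.68 CPM with chidamide and 280 ± 15.2 CPM with vehicle in Granta-519 (SD, n = 3). TIMM22, the translocase that inserts carriers into the inner membrane, also fell in both lines (log2 change -0.75 and -0.69). AGK, another subunit of the carrier translocase, rose in both (0.19 and 0.27).

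Among 14 enzymes that use the carriers' substrates, 10 fell and 2 rose under the JeKo-1 label (31.1% and 35.3% of all tested genes), and 11 fell and 3 rose in Granta-519 (31.3% and 39.6%). The median log2 change was -0.32 and -0.28, against 0.04 and 0.08 over all tested genes. ACLY, which splits the citrate exported by SLC25A1, averaged 411 ± 6.94 CPM with chidamide and 617 ± 13.9 CPM with vehicle under the JeKo-1 label, and 218 ± 3.16 CPM with chidamide and 332 ± 10.8 CPM with vehicle in Granta-519. Of 7 haem and iron-sulphur genes, 4 fell and 1 rose in each line, against the same shares of all tested genes. The one that rose was FECH, which inserts iron into haem, at 69.5 ± 4.63 CPM with chidamide and 49.8 ± 1.13 CPM with vehicle under the JeKo-1 label, and 81.8 ± 2.66 CPM with chidamide and 40.7 ± 2.22 CPM with vehicle in Granta-519 (SD, n = 3).

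The counts of these other lists stand against the same shares of all tested genes, 31.1% lower and 35.3% higher under the JeKo-1 label and 31.3% lower and 39.6% higher in Granta-519. Of 10 outer membrane pores and other metabolite carriers, 7 fell and 1 rose under the JeKo-1 label, and 8 fell and 1 rose in Granta-519. Of 9 genes of mitochondrial calcium uptake, 5 rose and 2 fell under the JeKo-1 label, and 3 rose and 3 fell in Granta-519. The 6 tested regulators of mitochondrial biogenesis all fell under the JeKo-1 label, and in Granta-519 3 fell and 2 rose. Of 4 carriers under other symbols, UCP2 among them, 1 rose and 2 fell under the JeKo-1 label, and 4 fell in Granta-519.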

How the data were processed

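Polyadenylated RNA of 12 libraries was sequenced. The authors deposited a table of gene counts. Alignment was with STAR to hg19, per the submitters' processing notes. Neither the counting tool nor the annotation or strand setting is given in the sources used here. The authors also deposited a length-scaled score, the count divided by a constant of the gene and by the rounded library total, which was used for levels between genes and as an alternative. Groups came from the titles.

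The test was edgeR (4.0.16, in R 4.3.3): filterByExpr, TMM scaling, robust glmQLFit with 4 group means over all 12 libraries (8 residual degrees of freedom) and glmQLFTest, with Benjamini-Hochberg adjustment over 15087 genes at 0.05. CPM used TMM-scaled library sizes. SE values are approximate and back-calculated from the F statistic. Folds against 0 counts used 3 counts over the group. Floors and counting intervals cover counting error only. With a common biological coefficient of variation of 0.0422, small changes passed. Replicate pairs differed by more than sampling noise (mean chi-square per gene 1.62 to 5.39, highest for JeKo-1-labelled vehicle replicates 1 and 2), and none was merged. The code was also run on simulated data with few changed genes, as many up as down, a common spread and no line difference. In these data most genes were called with chidamide, so that run checks the code only.

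Values per library are given by a rule: carriers of central roles, the 5 called members with the largest rise and fall in each line, members called in opposite directions, and the 5 with the largest difference between vehicle lines. Members and lists were chosen with earlier results of these data known. Alternatives were other scalings, no count filter, DESeq2 1.42.0, limma 3.58.1 on the log2 of the score plus 0.1, non-robust dispersion, fits on fewer groups, a replicate block and leaving out each library. Results for 2 genes are not reported here. Besides the marker lists in the text, summed CPM of 7 T and NK cell markers ran from 5.83 to 8.57 with chidamide, against 3.31 to 4.95 with vehicle, under the JeKo-1 label and from 9.54 to 13.0 with chidamide, against 6.27 to 7.53 with vehicle, in Granta-519. For 5 epithelial and stromal markers it ran from 30.0 to 34.1, against 24.7 to 28.2, and from 65.6 to 70.6, against 58.0 to 63.8, in the same order.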

Additional observations from a re-analysis of the deposited data

Results flagged for a closer look

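The change with chidamide differed between the lines, by the edgeR test of the difference itself, in 27 of the tested members, and 26 are given here. Values are log2 changes under the JeKo-1 label minus those in Granta-519, and no explanation was tested.

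The difference was negative for SLC25A27 (-3.91), SLC25A37 (-1.27), SLC25A22 (-1.12), SLC25A32 (-0.74), SLC25A4 (-0.66), SLC25A12 (-0.49), SLC25A15 (-0.42), SLC25A10 (-0.34), SLC25A39 (-0.27) and SLC25A46 (-0.22). SLC25A12 and SLC25A15 rose in both lines, and more in Granta-519.

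It was positive for SLC25A3 (0.17), SLC25A5 (0.18), SLC25A40 (0.30), SLC25A43 (0.31), SLC25A23 (0.42), SLC25A6 (0.43), SLC25A26 (0.49), SLC25A1 (0.57), SLC25A42 (0.58), SLC25A13 (0.58), SLC25A28 (0.63), SLC25A20 (0.75), SLC25A14 (0.75), SLC25A30 (1.29), SLC25A29 (1.63) and SLC25A24 (6.29). SLC25A1, SLC25A5, SLC25A6, SLC25A14, SLC25A26, SLC25A28 and SLC25A43 fell in both lines, and more in Granta-519. The fitted sizes for SLC25A24 and SLC25A27 rest on vehicle groups with 0 and 3 counts and depend on the prior count, and both calls were lost with limma on the score (edgeR adjusted p 6.32e-06 and 1.81e-07, limma adjusted p 0.0835 and 0.0671). SLC25A29 had 25 counts with chidamide and 10 with vehicle under the JeKo-1 label, and its call was lost without vehicle replicate 2 of that label (edgeR adjusted p = 0.0709). The difference for SLC25A43 (edgeR adjusted p = 0.0361) was lost in 9 of 21 settings, DESeq2 and 8 that leave out a library, with an adjusted p up to 0.128. That for SLC25A46 was lost in 6 settings (upper-quartile and library-size scaling, no count filter, limma, and without JeKo-1-labelled vehicle replicate 3 or Granta-519 vehicle replicate 1). That for SLC25A40 was lost in 4 settings that leave out a library, without JeKo-1-labelled vehicle replicate 2, Granta-519 chidamide replicate 1 or 2, or Granta-519 vehicle replicate 3. SLC25A10 and SLC25A39 lost theirs with library-size scaling, with no count filter and with limma, SLC25A15 with limma, and SLC25A26 without JeKo-1-labelled vehicle replicate 1 (edgeR adjusted p = 0.0537).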

How the results depend on the processing

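Over all alternatives, called members numbered 30 to 35 under the JeKo-1 label, 28 to 32 in Granta-519, 26 to 29 for the difference between lines and 35 to 37 between vehicle lines. Of the calls, 23 of 34, 25 of 29, 17 of 27 and 32 of 36 passed in every setting in which the member was tested. SLC25A18 and SLC25A24 were not tested in the fit on the JeKo-1-labelled libraries alone, nor SLC25A18 in that on the vehicle libraries alone. Of the members not called, 5 of 9, 6 of 14, 6 of 16 and 2 of 7 were called in at least 1 setting. Falls under the JeKo-1 label numbered 14 with upper-quartile scaling, against 22, and more negative differences numbered 7 with limma on the score, against 11. SLC25A5 between vehicle lines turned to -0.12 (library-size scaling) and -0.13 (limma), against 0.02, and the difference of SLC25A21 to -0.41 (limma), against 0.19; the cause was not tested. Summed CPM of all members under the JeKo-1 label was 4331 with chidamide and 4439 with vehicle with library-size scaling, 4388 and 4452 with upper-quartile scaling, and 4660 with vehicle with median-of-ratios scaling. In Granta-519 it was 3783 with chidamide and 4456 with vehicle with upper-quartile scaling, and 4653 with vehicle with library-size scaling. Translocases summed under the JeKo-1 label to 2035 with chidamide and 2103 with vehicle (upper quartile) and 2096 with vehicle (library size), and in Granta-519 to 1987 with chidamide (upper quartile). Leaving out 1 library gave 31 to 34, 28 to 31, 26 to 28 and 35 to 37 calls: 10 to 13 higher and 20 to 22 lower, 8 to 9 and 20 to 22, 15 to 18 and 10 to 11, and 21 and 14 to 16.

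Deviations from the group means correlated at -0.0214 to 0.0780 between same-numbered libraries of a line, and at -0.0609 to 0.0304 between differently numbered ones. Counting noise enters these correlations, so they cannot decide whether replicate numbers pair the libraries. With the replicate block within a line, 12 members rose and 22 fell under the JeKo-1 label, 9 rose and 21 fell in Granta-519, and 18 and 11 differed between lines. A block over all groups, chosen after seeing the data, gave 12 and 22, 9 and 21, 17 and 11, and 21 and 15 between vehicle lines. Library totals of at least 12873642 counts left members with a few counts per group, such as SLC25A21 under the JeKo-1 label, without a precise change.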
